A study of Homo sapiens with 12 samples.

Results

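The steady-state levels of 372 miRNAs were compared between My5.CRBN and My5.LV cells that had received no treatment. The comparison took every human miRNA assay of the array, and used 2 of the 12 arrays in the study, 1 for each cell line. The other 10 arrays held the same pair of cell lines under 5 treatments. They served to ask which differences of at least 3 fold recurred in arrays that had no part in choosing those miRNAs. Some further miRNAs were named from the treated arrays themselves. The study concerned AGO2 as a binding partner of cereblon in multiple myeloma (MM).

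Both cell lines came from OCI-My5, an established human MM line that expresses little CRBN. My5.LV cells were infected with the lentiviral vector alone and remained CRBN-low. My5.CRBN cells were infected with lentivirus carrying human CRBN cDNA, which makes His-tagged cereblon, and were CRBN-high. The treated pairs were cells infected with virus for AGO2 cDNA (EIF2C2 in the labels), cells infected with virus for the shRNA AGO2-sh72, cells given 10 μM lenalidomide for 72 or 120 hours, and AGO2 cDNA cells given lenalidomide for 72 hours. Each line was a single infected population, so the amount of CRBN and anything else in which the 2 populations differed cannot be told apart. CRBN and AGO2 were not measured on these arrays, which therefore hold no check of the labels.

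A miRNA is cut from a hairpin precursor and loaded into an Argonaute protein such as AGO2, and it pairs with mRNAs mainly through its seed, the bases near its 5′ end. Either arm of the hairpin can be kept, and Argonaute binding protects the kept strand from decay. Cereblon, the product of CRBN, is the substrate receptor of a ubiquitin ligase and the protein to which lenalidomide and other IMiDs bind. Plasma cell lines carry B-lineage miRNAs such as miR-142 and miR-150.

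Of the 372 assays, 332 matched a mature sequence in RefSeq (GRCh38.p14), among them all 15 miRNAs that stood at least 3 fold apart between the untreated lines. The sequences below are those on which the results turn, written 5′ to 3′ with the seed (bases 2 to 8) in capitals. The miRNAs shown alone are those that led the untreated comparison or the test over treated pairs.
miR-143-3p: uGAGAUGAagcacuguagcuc
miR-223-3p: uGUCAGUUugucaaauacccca
miR-551b-3p: gCGACCCAuacuugguuucag
miR-513a-5p: uUCACAGGgaggugucau
miR-508-5p: uACUCCAGagggcgucacucaug
miR-218-5p: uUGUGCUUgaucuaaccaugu
miR-22-3p: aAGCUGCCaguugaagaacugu

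The next sequences are shown as pairs with the same seed, the first of each being past 3 fold and the other not.
miR-206: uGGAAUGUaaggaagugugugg
miR-1: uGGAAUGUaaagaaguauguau
miR-125a-5p: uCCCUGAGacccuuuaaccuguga
miR-125b-5p: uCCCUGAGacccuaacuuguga
miR-129-1-3p: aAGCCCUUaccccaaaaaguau
miR-129-2-3p: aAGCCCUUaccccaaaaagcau
miR-23b-5p: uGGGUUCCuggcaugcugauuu
miR-23a-5p: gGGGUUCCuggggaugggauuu
miR-211-5p: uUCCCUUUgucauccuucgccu
miR-204-5p: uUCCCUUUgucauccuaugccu

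By position in GRCh38.p14, miR-143-3p lies at chr5:149428978-149428998 on the plus strand inside the long non-coding RNA gene CARMN, and miR-223-3p at chrX:66018937-66018958 on the plus strand inside MIR223HG. miR-551b-3p lies at chr3:168551914-168551934 on the plus strand inside the pseudogene EGFEM1P. miR-513a-5p has 2 identical gene copies on the minus strand, at chrX:147213538-147213555 and chrX:147225900-147225917, and miR-508-5p lies beside them at chrX:147236980-147237002. The long non-coding RNA gene LOC105373347 spans all of these X-linked positions. miR-22-3p lies at chr17:1713914-1713935 on the minus strand inside MIR22HG. miR-218-5p also has 2 copies, at chr4:20528299-20528319 inside SLIT2 and at chr5:168768211-168768231 inside SLIT3, and the assay cannot tell them apart.

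The level of each miRNA was taken from its threshold cycle (Ct), the PCR cycle at which the well crosses a set signal, so that a late Ct means little of the miRNA. Wells later than cycle 35, or in which no cycle was determined, were given a Ct of 35. The mean Ct of 6 small-RNA wells (RNU6-2 and the small nucleolar RNAs SNORD61, SNORD68, SNORD72, SNORD95 and SNORD96A) was then subtracted, which gives the normalized Ct. A log2 fold is the normalized Ct of My5.LV minus that of My5.CRBN, and is above 0 where My5.CRBN had more. With 1 array a side the untreated comparison has neither a replicate check nor a p-value, and its precision is limited by that number.

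The spread was gauged from wells that should not differ. The mean Ct of the 6 small-RNA wells was 20.2 for My5.LV and 20.8 for My5.CRBN. Against that mean their log2 folds ran from -0.29 for SNORD96A to 0.25 for RNU6-2, with an SD of 0.22. Duplicate wells of the reverse transcription control were 0.146 and 0.0860 cycles apart on the My5.LV and My5.CRBN arrays, and those of the positive PCR control 0.202 and 0.275 cycles. Duplicate wells of cel-miR-39, a worm miRNA whose Ct lay near the cap, were 4.84 and 1.81 cycles apart (1.77 in My5.LV once its later well was set to 35), more than the 3 fold line of 1.58 on the log2 scale.

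A Ct under 35 was recorded for 354 miRNAs in My5.LV, for 348 in My5.CRBN and for 344 in both. At the cap were 4 miRNAs in My5.LV alone, 10 in My5.CRBN alone and 14 in both. The 14 have no measured fold, and the value of 0.63 that the method assigns them is only the difference between the control means. Of the blood-lineage markers, miR-142-3p, kept to blood cells, was among the earliest assays with a Ct of 16.6 and 16.9 in My5.LV and My5.CRBN. miR-150-5p, of mature lymphocytes, had a Ct of 19.8 and 20.2, whereas miR-155-5p, of activated B cells, was late at 31.2 and 31.3. The liver miRNA miR-122-5p had a Ct of 33.8 in My5.LV and lay past the cap in My5.CRBN, and its other arm lay at or past the cap in both.

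Most miRNAs lay close to the line of equal levels. The median log2 fold over all 372 was -0.06, with quartiles of -0.37 and 0.25 and an SD of 0.70. Of the 344 measured on both arrays, 150 were higher in My5.CRBN and 194 lower. At least 3 fold higher were 8 miRNAs (2.15% of all tested) and at least 3 fold lower were 7 (1.88%), which makes 15 in either direction (4.03%). All 15 had a Ct under 35 on both arrays. Wells of cel-miR-39, a worm miRNA, also came under 35, at 33.2 in My5.LV and at 34.8 and 33.0 in My5.CRBN. A Ct that late may therefore not show that a miRNA was present, and several of the 15 had one on at least 1 array.

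**Figure D1:**
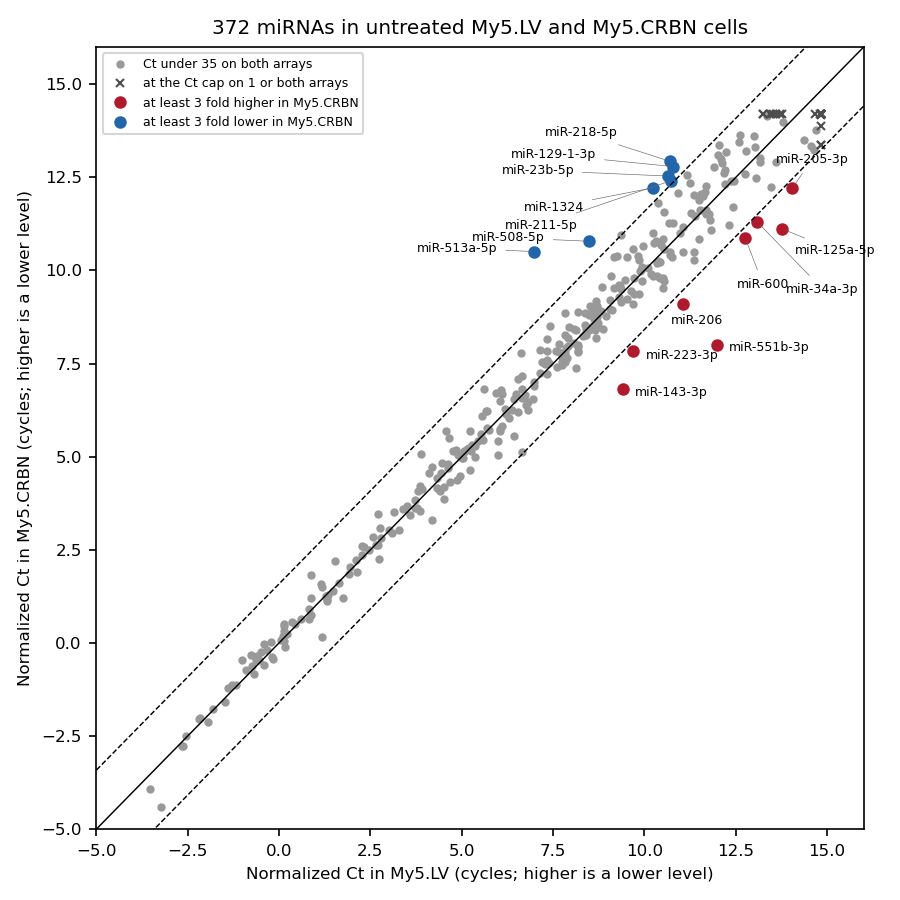
Normalized Ct (cycles) of each miRNA in untreated My5.LV cells against untreated My5.CRBN cells, 1 array a line, with equal levels as the solid line and 3 fold as the dashed lines. The 8 miRNAs below the lower dashed line had more miRNA in My5.CRBN and the 7 above the upper one had less, and all 15 lie in the upper right, among the late assays.

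The width of the scatter grew with Ct. Among the 77 miRNAs whose mean Ct over both arrays was under 24, the SD of the log2 folds was 0.32 and none was past 3 fold. From Ct 28 to 30 the SD was 0.67, with 2 miRNAs higher and 1 lower by 3 fold. From Ct 30 to 32 it was 0.96, with 2 in each direction. From Ct 32 to 35 it was 1.05, with 4 in each direction, so 8 of the 15 miRNAs came from the class of latest Ct. The 111 miRNAs with a Ct under 26 on both arrays had a median log2 fold of -0.06 and an SD of 0.35, and 0 of them were past 3 fold.

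**Figure D2:**
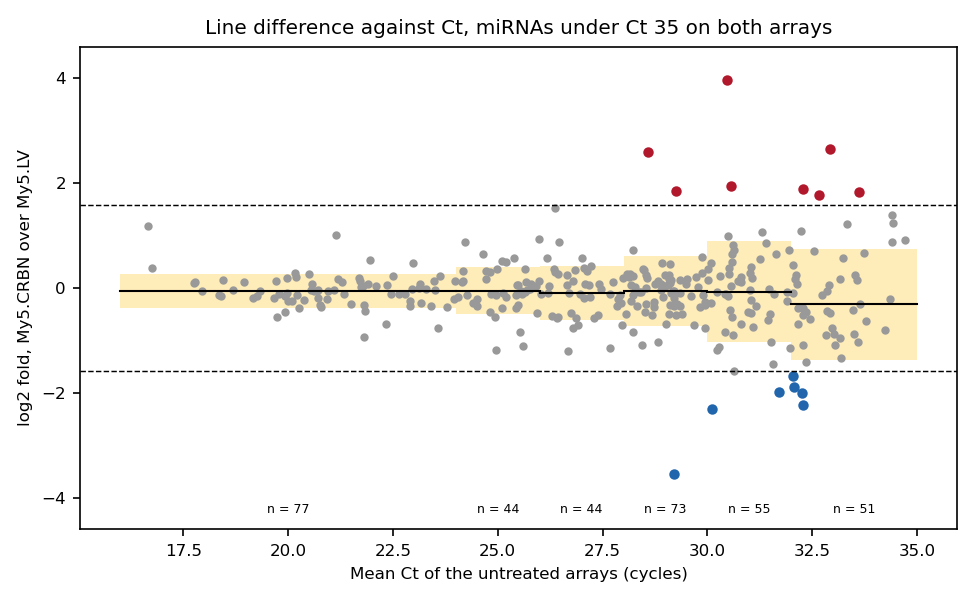
Log2 fold of My5.CRBN over My5.LV in untreated cells against the mean Ct (cycles) of both arrays, for the 344 miRNAs under Ct 35 on both, with red and blue points for the miRNAs past 3 fold in either direction. The black steps are the class medians and the shaded band 1 SD of the log2 folds on each side, which widens from 0.32 under Ct 24 to 1.05 from Ct 32 to 35. The medians lie between -0.09 and -0.05 in the first 5 classes and at -0.31 in the last, which holds 8 of the 15 miRNAs past 3 fold.

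Among these 111 abundant miRNAs, 2 were higher in My5.CRBN by 2 fold or more and 1 was lower by as much. miR-720, an entry that matches a tRNA fragment, had a Ct of 16.9 on the My5.LV array and 16.4 on the My5.CRBN array (log2 fold 1.18). miR-1, a miRNA of striated muscle, had a Ct of 21.3 and 20.9 (1.01), and miR-9-5p, of neurons, 24.3 and 24.1 (0.88). Each had an earlier Ct in My5.CRBN although that array's control wells were later. On the other side were miR-135a-5p, whose Ct was 24.04 and 25.86 (-1.19), miR-181c-5p (-0.93) and miR-185-5p (-0.76). In the treated pairs the log2 fold of miR-720 was below 0 in 4 of 5 pairs, whereas miR-1 and miR-9-5p were above 0 in all 5 and miR-185-5p below 0 in all 5. The mean log2 fold over the treated pairs was 0.15 for miR-135a-5p and 0.22 for miR-181c-5p, of the opposite sign to their untreated folds.

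miR-551b-3p had the largest untreated difference, with a Ct of 32.1 for My5.LV, 28.8 for My5.CRBN and a log2 fold of 3.97. miR-143-3p, best known from smooth muscle, had a Ct of 29.6 and 27.6 (2.60). miR-223-3p, a miRNA of the myeloid lineage, had a Ct of 29.9 and 28.6 (1.86). These miRNAs and miR-206 were the 4 at least 3 fold higher with a Ct under 30 on at least 1 array.

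The others had late Ct values in both lines, and miR-206 is given with them. miR-125a-5p had a Ct of 33.9 for My5.LV and 31.9 for My5.CRBN (log2 fold 2.65), and miR-206, a miRNA of skeletal muscle, 31.2 and 29.9 (1.95). miR-600 had a Ct of 32.9 and 31.7 (1.89). miR-205-3p, the minor arm of an epithelial miRNA, had 34.2 and 33.0 (1.83), and miR-34a-3p, the minor arm of a miRNA that p53 induces, 33.2 and 32.1 (1.78). The 3 nearest to the 3 fold line from inside were miR-34a-3p, miR-205-3p and miR-223-3p. Just outside it were miR-497-5p (1.52), miR-208a-3p (1.48) and miR-337-5p (1.48). The last 2 were at the cap in My5.LV, so their values are lower bounds and their folds could lie past the line.

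miR-513a-5p was the most reduced in My5.CRBN, with a Ct of 27.1 for My5.LV, 31.3 for My5.CRBN and a log2 fold of -3.54. Its neighbour miR-508-5p had a Ct of 28.6 and 31.6 (-2.31). Both belong to an X-linked cluster best known from testis. They were the only 2 of the 7 lower miRNAs with a Ct under 30 on either array.

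The rest of the lower miRNAs went from a Ct near 31 in My5.LV to one past 33 in My5.CRBN. miR-218-5p, encoded in the introns of the SLIT genes and abundant in motor neurons, had a Ct of 30.9 and 33.7 (log2 fold -2.24). miR-129-1-3p had 30.9 and 33.6 (-2.00) and miR-1324 30.4 and 33.0 (-1.99). miR-23b-5p, the minor arm of miR-23b, had 30.8 and 33.3 (-1.89), and miR-211-5p, encoded in the melanocyte gene TRPM1, 30.9 and 33.2 (-1.68). Just outside the line were miR-196b-5p (-1.58), miR-215-5p (-1.45) and miR-376b-3p (-1.41), of which miR-196b-5p missed it in the fourth decimal of the log2 fold.

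The 10 treated arrays form 5 further pairs of the cell lines, in which the same difference was taken within each treatment. Of the 8 miRNAs higher in untreated My5.CRBN, 2 were higher in 5 of 5 treated pairs and 6 in at least 4. In all, 30 of their 40 values (75%) were above 0, against 55.5% of the values of all 372 miRNAs. Of the 7 lower miRNAs, 3 were lower in 5 of 5 pairs and 4 in at least 4. Of their 35 values 25 (71.4%) were below 0, against 44.5% of all values. Over all miRNAs, 29 (7.80%) were higher in 5 of 5 treated pairs and 16 (4.30%) lower.

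miR-143-3p was 3 fold higher in My5.CRBN in every pair, with log2 folds of 2.08 under AGO2 cDNA, 2.85 under AGO2-sh72, 3.35 after 72 hours of lenalidomide, 3.02 with AGO2 cDNA and lenalidomide, and 2.52 after 120 hours. miR-223-3p gave 2.05, 1.30, 2.79, 2.50 and 2.01 in the same order, and fell short of 3 fold under AGO2-sh72 alone. miR-513a-5p gave -3.19, -1.44, -2.40, -3.92 and -4.03. Its smallest difference was also under AGO2-sh72.

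The miRNA with the largest untreated difference was less regular. miR-551b-3p gave log2 folds of 2.04 under AGO2 cDNA, 2.42 under AGO2-sh72, 0.35 after 72 hours of lenalidomide, -0.06 with AGO2 cDNA and lenalidomide, and 1.85 after 120 hours. miR-218-5p was lower in all 5 pairs, from -0.64 under AGO2-sh72 to -3.30 after 120 hours of lenalidomide, and miR-129-1-3p from -0.29 to -2.39, with 1 My5.CRBN array at the cap. miR-508-5p was not: it gave -1.37 under AGO2 cDNA, then 0.04, 1.04, 0.99 and 0.33. miR-23b-5p was below 0 without lenalidomide (-1.46 and -0.95) and above 0 in the 3 pairs with it (1.22, 1.54 and 1.13). miR-34a-3p and miR-205-3p, the 2 just inside the line on the higher side, ran from -1.65 to 0.26 and from -0.55 to 0.68.

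**Figure D3:**
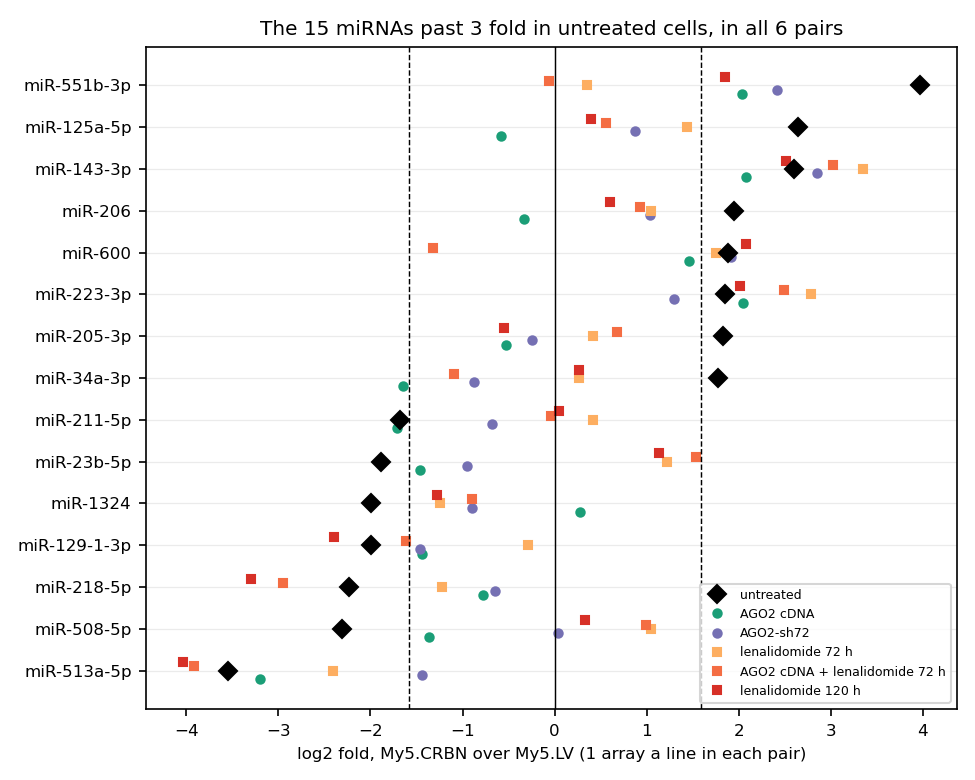
Log2 fold of My5.CRBN over My5.LV for the 15 miRNAs past 3 fold in untreated cells, in the untreated pair (black diamonds) and the 5 treated pairs (coloured), each point being 1 array a line, with dashed lines at 3 fold. All points of miR-143-3p and miR-223-3p lie right of 0 and all of miR-513a-5p, miR-218-5p and miR-129-1-3p left of it, while those of the remaining 10 fall on both sides.

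The average line difference was tested over the 5 treated pairs with limma, with treatment as a block and Benjamini-Hochberg adjustment over all 372 miRNAs. The untreated arrays took no part. Treatments are not replicates of the untreated state, and all arrays of a line came from the same infected population. The test therefore asks whether a difference between these populations recurred across treatments beyond its spread between treatments. My5.CRBN had 7 miRNAs higher (1.88%) and 3 lower (0.806%) at an adjusted p below 0.05, and 51 of 372 had an unadjusted p below 0.05.

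Of the 15 miRNAs past 3 fold in untreated cells, 3 passed this test. miR-143-3p was higher in My5.CRBN by 2.76 ± 0.28 (SE) on the log2 scale, or 6.80-fold, in 5 of 5 pairs (limma adjusted p = 5.16e-05). miR-223-3p was higher by 2.13 ± 0.33, or 4.37-fold, in 5 of 5 pairs (adjusted p = 0.0013). miR-513a-5p was 7.99-fold lower (-2.998 ± 0.411 on the log2 scale), also in 5 of 5 pairs (adjusted p = 0.00077). Without the treatment block miR-513a-5p kept an adjusted p of 0.0212, whereas miR-143-3p (0.281) and miR-223-3p (0.734) did not pass. Each of these 3 passed with any of the 5 pairs left out. The pairs are related, since AGO2 cDNA and lenalidomide each recur among them, so leaving out a pair is a limited check. The 3 miRNAs are 25% of the 8 higher miRNAs and 14.3% of the 7 lower, and 28.6% and 33.3% of the miRNAs that limma called in each direction.

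The other 12 of the 15 did not pass. miR-551b-3p differed by 1.32 ± 0.41 (limma adjusted p = 0.11), miR-218-5p by -1.78 (0.0822) and miR-129-1-3p by -1.44 (0.109). For miR-600 the mean difference was 1.18 (adjusted p = 0.329), for miR-206 0.65 (0.512) and for miR-125a-5p 0.54 (0.698). miR-508-5p (0.21), miR-23b-5p (0.30), miR-34a-3p (-0.62) and miR-205-3p (-0.04) had a mean over the treated pairs of the opposite sign to their untreated fold, at limma adjusted p-values from 0.667 to 0.986, and 3 of these, all but miR-34a-3p, changed that sign under another setting. miR-211-5p (-0.39, adjusted p = 0.878) and miR-1324 (-0.81, adjusted p = 0.461) completed the 15.

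The remaining calls were miRNAs that had not reached 3 fold in untreated cells. miR-22-3p, a miRNA expressed in most tissues, was higher in My5.CRBN by 1.52 ± 0.23 (adjusted p = 0.0013), in 5 of 5 treated pairs, against an untreated log2 fold of 0.11 (Ct 23.9 and 24.4). Muscle miR-133a-3p was higher by 1.18 ± 0.23 (0.0111; untreated 0.51), and miR-455-5p, encoded in the collagen gene COL27A1, by 2.38 ± 0.50 (0.0187; untreated 1.09). miR-7-5p, a neuroendocrine miRNA encoded in part in HNRNPK, was lower by -1.28 ± 0.30 (0.0340; untreated -0.35), and miR-200c-3p, an epithelial miRNA, by -0.94 ± 0.23 (0.0465; untreated -0.85). miR-424-5p and miR-22-5p were the other 2 called higher, and the untreated fold of all 10 called miRNAs had the sign of the limma difference.

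These counts moved with the pairs used. Without the pair given lenalidomide for 72 hours, 4 miRNAs were higher and 1 lower, without the pair given AGO2 cDNA and lenalidomide 4 and 2, and without the AGO2 cDNA pair 11 and 2. miR-22-3p and miR-133a-3p passed with any pair left out, but miR-133a-3p did not without the intensity trend (adjusted p = 0.0759). miR-455-5p did not pass without any 1 of the 3 lenalidomide pairs (adjusted p from 0.0792 to 0.106), miR-7-5p not without the AGO2 cDNA pair (0.0569) or the 72 hour lenalidomide pair (0.104), and miR-200c-3p, of the fits with a pair left out, only in that without the AGO2 cDNA pair (0.0411). With RNU6 alone as normalizer miR-200c-3p did not pass either (0.0864). miR-424-5p did not pass without the 72 hour lenalidomide pair (0.139) or the pair with AGO2 cDNA and lenalidomide (0.150), and miR-22-5p, of the fits with a pair left out, passed only in that without the AGO2 cDNA pair (0.0316). Without the treatment block 0 were higher and 1 lower, with 10 and 7 at an unadjusted p below 0.05.

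On the 5 treated arrays of each line, the normalized Ct ranges of 2 miRNAs higher (0.538% of 372) and 2 lower (0.538%) in My5.CRBN did not overlap. The higher ones were both arms of miR-22. Over all 6 arrays of a line, the normalized Ct of miR-22-3p was 3.58 at its lowest, 3.92 at the median and 4.65 at its highest in My5.LV, and 1.51, 3.01 and 3.61 in My5.CRBN. The untreated My5.CRBN array was the one that reached into the My5.LV range. The lower ones were miR-513a-5p and miR-504-5p, the latter named because its ranges were apart. The ranges of miR-504-5p nearly touched, at 9.642 for the highest treated My5.LV array and 9.656 for the lowest treated My5.CRBN array. Duplicate control wells lay further apart than that, and limma did not call miR-504-5p. The normalized Ct of miR-513a-5p was 6.08, 7.52 and 9.19 in My5.LV and 9.74, 10.6 and 11.7 in My5.CRBN, with no overlap over all 12 arrays.

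The ranges of the others overlapped. miR-143-3p ran from 7.16 through a median of 8.78 to 10.7 in My5.LV and from 4.50 through 6.06 to 7.88 in My5.CRBN. miR-223-3p ran from 7.90 through 9.38 to 11.7 and from 5.89 through 7.21 to 10.4. For both, the AGO2-sh72 array had the lowest level in either line, and the lines stayed apart within each treatment.

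**Figure D4:**
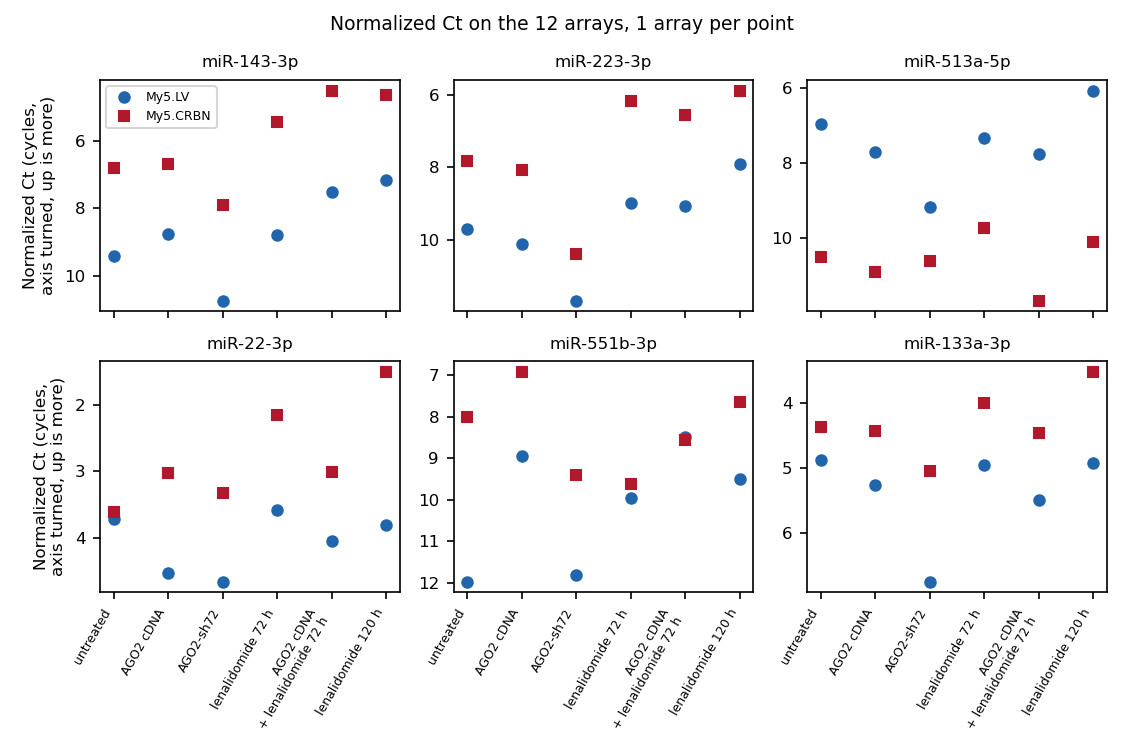
Normalized Ct (cycles, axis turned so that up is a higher level) of 6 miRNAs on all 12 arrays, 1 point an array, My5.LV in blue circles and My5.CRBN in red squares. In every condition the red point lies above the blue for miR-143-3p, miR-223-3p, miR-22-3p and miR-133a-3p and below it for miR-513a-5p, while miR-551b-3p nearly meets with AGO2 cDNA and lenalidomide.

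Where both arms of a hairpin were assayed, they could be set side by side, since both come from 1 precursor. Pairs were formed only where both assay names matched RefSeq mature sequences of the same gene. This left out some hairpins with both arms assayed, such as miR-21. Of the 77 pairs formed, 71 had both arms under Ct 35 on both untreated arrays. In 39 of the 71 the arms had the same sign, and the median distance between their log2 folds was 0.324. Of the miRNAs past 3 fold, 7 were in these pairs, and in 0 of these 7 was the other arm also past 3 fold.

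The widest gap, 3.06, was that of miR-143. Its 5p arm had a Ct of 30.4 for My5.LV and 31.5 for My5.CRBN (log2 fold -0.46), and gave treated values from -1.61 to 0.86, on both sides of 0. miR-223-5p had a Ct of 32.9 and 34.0 (-0.42), with treated values from -0.99, a bound because that My5.CRBN array was at the cap, to 2.82. For miR-125a the 3p arm had a log2 fold of 0.16, for miR-34a the 5p arm 0.10 and for miR-23b the 3p arm -0.34, each of them the arm with the earlier Ct. miR-218-1-3p (-1.04) and miR-205-5p (1.00) had the sign of their partners. In contrast to miR-143, both arms of miR-22 were above 0 in every treated pair, from 1.03 to 2.30 for the 3p arm and from 0.99 to 1.81 for the 5p arm, which had a Ct of 29.5 and 30.1 in the untreated cells.

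miRNAs with a common seed were set side by side in the same way. miR-1 shares the seed GGAAUGU with miR-206 and differs from it at 4 of 22 bases. Its log2 fold was 1.01, against 1.95 for miR-206, at a much earlier Ct. miR-125b-5p, with the seed of miR-125a-5p, had a Ct of 22.9 for My5.LV and 23.1 for My5.CRBN (0.47, against 2.65). miR-129-2-3p differs from miR-129-1-3p by the single substitution U20C, counted from the 5′ end with the base of miR-129-1-3p first. Its log2 fold was -0.25, against -2.00, although its Ct of 31.4 and 32.3 was as late. miR-23a-5p had -0.12 against -1.89 for miR-23b-5p, and miR-204-5p -0.57 against -1.68 for miR-211-5p, from which it differs at 2 bases. In all 5 seed pairs both members had the same sign and the one past 3 fold was the further from 0, which the choice of that member fixes. Whether assays for such close sequences read each other's miRNA was not tested.

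Neighbouring genes did not stand at one level either. let-7e-5p and miR-99b-5p, transcribed 475 and 650 bases from miR-125a-5p, had log2 folds of 0.06 and -0.11. miR-133b, 4587 bases from miR-206, had 0.16. miR-145-5p, 1683 bases from miR-143-3p in CARMN, had -0.04 with a Ct of 28.6 and 29.2, and its 3p arm 1.23 with a Ct past 34 in both. miR-24-3p and miR-27b-3p, beside miR-23b-5p, had -0.19 and 0.14, of which miR-24-3p has a further copy elsewhere.

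The X-linked cluster of miR-506 to miR-514 had the lowest median of the families and groups with measured assays, -1.34 over 5 assays against -0.07 over the 344 miRNAs measured on both arrays. Group medians and signs are given over the assays so measured, since capped assays have no exact fold. miR-513a-5p (-3.54), miR-508-5p (-2.31), miR-514a-3p (-1.34) and miR-506-3p (-1.19) were lower in untreated My5.CRBN and miR-509-3p higher (0.73). In the treated pairs the median of their limma differences was 0.05, and miR-513a-5p was the only member of the 5 that passed, against 2.69% of all miRNAs, and 2 (40%) had an unadjusted p below 0.05, against 13.7%. miR-514a-3p was below 0 in 5 of 5 treated pairs, from -0.30 to -3.65, with My5.CRBN at the cap in 2 of them, that of -3.65 included.

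The medians of 4 groups known from B cells and myeloma ran from -0.26 to 0.07. Few abundant miRNAs of any kind were past 2 fold, 2 higher and 1 lower of the 111 with a Ct under 26. The 11 let-7 assays, of a family that restrains growth genes, ran from -0.34 to 0.38 in log2 fold, all within 2 fold. Of the miR-17 cluster and its relatives, which MYC drives, 21 of 22 assays were measured on both arrays and all 21 were within 2 fold, with a median of -0.06. The 11 listed assays of the miR-29 and miR-30 families had a median of -0.26, with 10 below 0 and all within 2 fold. The lists matched no assay named for 1 of several gene copies unless it was entered as such, which left out miR-30c-1-3p (-1.08, past 2 fold), miR-29b-2-5p (0.08), miR-92a-1-5p (-0.70) and miR-218-1-3p (-1.04). The myeloma-linked group (miR-21, miR-181, miR-221 and miR-222), with 11 of 12 assays measured, had a median of -0.20, with 3 above 0 and 8 below. miR-221-3p stood at 0.04 and miR-21-5p at -0.15. The lowest were miR-181c-5p (-0.93), miR-181c-3p (-0.71), miR-181d-5p (-0.55) and miR-222-5p (-0.51). In these 4 groups limma called 0 of 56 assays over the treated pairs, against 10 of all 372 (2.69%), and 8 (14.3%) had an unadjusted p below 0.05, against 13.7% of all. These 8 were 5 of 22 in the miR-17 group (22.7%), 1 of 11 in the miR-29 and miR-30 group, 2 of 12 in the myeloma-linked group and 0 of 11 in let-7. The 5 were miR-17-5p, miR-20a-5p, miR-20a-3p, miR-20b-5p and miR-106b-5p, with treated differences from -0.69 to -0.46 and adjusted p from 0.115 to 0.349.

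Of the 4 assays of miR-155 and miR-146, which NF-kB induces, miR-155-5p had a log2 fold of 0.55, and miR-146a-5p (-0.04), miR-146b-5p (-0.18) and miR-155-3p (-0.76) were below 0. The unadjusted p was below 0.05 for 1 of the 4 (25%), against 13.7% of all miRNAs, and 0 were called. The blood-lineage group had a median of 0.05 over 10 of 12 assays, with 5 above 0 and 5 below. Of these, miR-223-3p was past 3 fold and was also the only one called in the treated pairs, against 2.69% of all miRNAs, while 5 of 12 (41.7%) had an unadjusted p below 0.05, against 13.7%. These 5 were miR-223-3p, both arms of miR-126 and both arms of miR-144. The arms of miR-144 were not measured on both untreated arrays and were at the cap on some treated arrays, so their differences depend in part on the cap. miR-142-3p had 0.38, miR-150-5p 0.20 and both arms of miR-126 0.57 and 0.56, while miR-486-3p had -1.03, miR-142-5p -0.11 and miR-486-5p -0.11. miR-451a, the miRNA whose precursor AGO2 itself cuts in place of Dicer, had a Ct of 29.5 for My5.LV and 30.4 for My5.CRBN (-0.26), and a treated difference of 0.59 (limma adjusted p = 0.536). The group of miR-15, miR-16, miR-103 and miR-107 had a median of 0.09, with miR-16-5p at 0.09 and miR-497-5p at 1.52, and 1 of its 11 assays was called higher, miR-424-5p (0.88 ± 0.19, adjusted p = 0.0258).

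Groups named for other tissues were described in the same way, beside 4.03% of all miRNAs past 3 fold and, over the treated pairs, 2.69% called and 13.7% at an unadjusted p below 0.05. Of the 8 muscle assays 6 were measured, with a median of 0.34, 4 above 0, 2 below and miR-206 past 3 fold, and limma called 1 of the 8, miR-133a-3p, with 2 (25%) at an unadjusted p below 0.05. For miR-1 the treated difference was 0.83 (adjusted p = 0.0822). The 9 epithelial assays, all measured, had a median of -0.69, of which miR-141-3p (-1.20), miR-200c-3p (-0.85), miR-429 (-0.85) and miR-200b-3p (-0.71) were below 0 and miR-200a-3p (1.06) and both arms of miR-205 above. miR-205-3p (1.83) was past 3 fold higher. limma called 1 of the 9, miR-200c-3p, and 4 (44.4%) had an unadjusted p below 0.05. Of these 4, miR-200c-3p (-0.94), miR-200b-3p (-0.97) and miR-141-3p (-0.59) were lower in the treated pairs and miR-205-5p (2.31) higher. Of the 17 neural and neuroendocrine assays 16 were measured, with a median of -0.12, 5 above 0 and 11 below. Past 3 fold lower were 3 (miR-129-1-3p, miR-211-5p and miR-218-5p), and limma called 1 lower in the treated pairs, miR-7-5p. Of the 17, 7 (41.2%) had an unadjusted p below 0.05, in both directions. miR-9-5p (0.86), miR-9-3p (0.93) and miR-132-3p (0.84) were higher. miR-7-5p (-1.28), miR-218-5p (-1.78), miR-129-1-3p (-1.44) and miR-204-5p (-0.68) were lower.

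The levels of markers of other cell types stood as follows, with each assay taken at a doubling a cycle and set against the small-RNA mean. The 4 muscle markers (miR-1, miR-133a-3p, miR-133b and miR-206) were higher in My5.CRBN, while the other measured muscle assays, miR-499a-3p (-0.63) and miR-499a-5p (-0.31), were not. The sum of the 4 went from 52.9% of the small-RNA level in My5.LV to 101% in My5.CRBN, most of it miR-1. The 4 smooth muscle markers, the arms of miR-143 and miR-145, summed to 0.528% and 1.25%, 2 of them higher and 2 lower. The 5 epithelial markers summed to 6.23% and 3.34%, led by miR-200c-3p, with 2 higher and 3 lower. The 4 neuronal markers (both arms of miR-9 and miR-124) summed to 7.51% and 13.6%, led by miR-9-5p, with 3 higher and 1 lower, whereas most of the longer neural group lay below 0. The 10 blood-lineage markers summed to 1457% and 1824%, led by miR-142-3p, with 5 higher and 5 lower. The part of any other cell type in these differences was not tested.

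The further groups stand beside 4.03% of all miRNAs past 3 fold. miR-10, miR-99, miR-100 and miR-125 had a median of 0.42 over 10 of 11 assays, with 8 above 0 and miR-125a-5p (2.65) past 3 fold. The imprinted cluster on chromosome 14 had a median of 0.03 over 25 of 28 assays, with 13 above 0, 12 below and 0 past 3 fold. The 4 assays of miR-143 and miR-145 had a median of 0.60, with miR-143-3p past 3 fold. They had 1 limma call, also miR-143-3p, against 2.69% of all miRNAs called, and 3 of the 4 (75%) had an unadjusted p below 0.05, against 13.7%. Among those 3, miR-145-3p was at the cap on some treated arrays of each line. The p53-linked group had a median of 0.02 over 8 of 10 assays, with miR-34a-3p (1.78) past 3 fold and miR-34a-5p, the abundant arm, at 0.10. miR-23, miR-24, miR-26 and miR-27 had a median of -0.12 over 11 assays, with miR-23b-5p the only one past 3 fold. The embryonic and placental group had a median of 0.09 over the 10 of 17 assays that were measured, with 5 above 0 and 5 below.

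**Figure D5:**
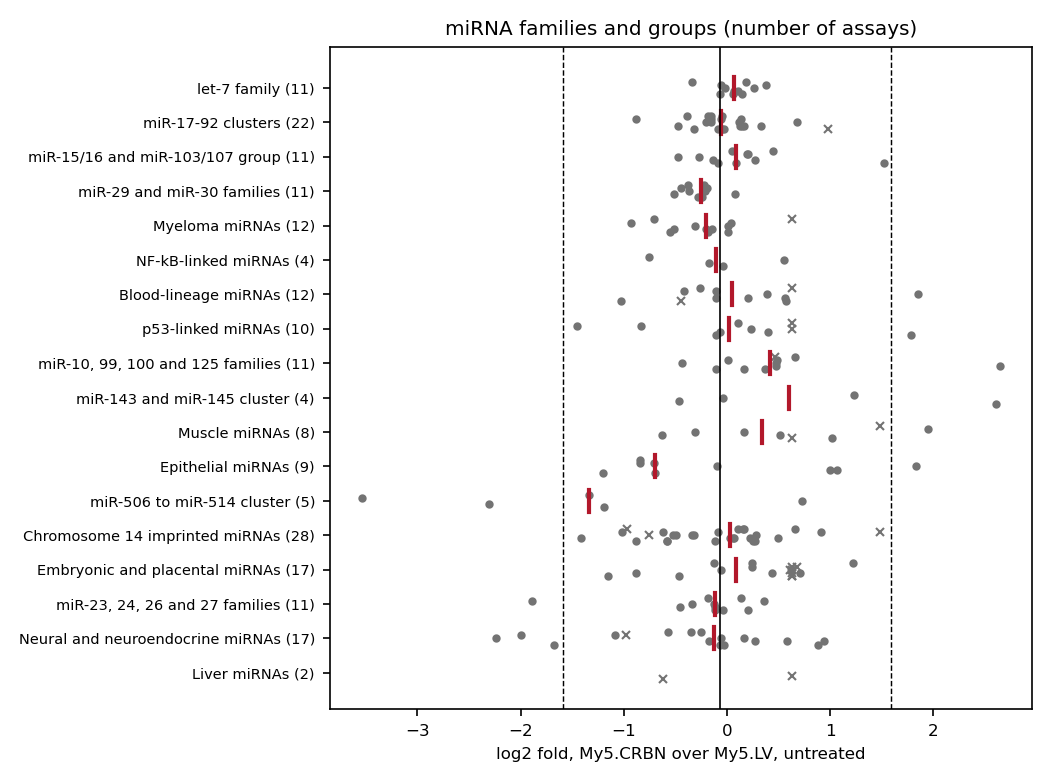
Log2 fold of My5.CRBN over My5.LV in untreated cells for the assays of 18 miRNA families and groups, 1 point an assay, crosses for assays at the Ct cap on either array, red bars for group medians over the assays without crosses, the solid line for the median of the 344 miRNAs measured on both arrays and dashed lines at 3 fold. The miR-506 to miR-514 cluster has the median furthest left (-1.34), and the let-7 points all lie between -0.34 and 0.38.

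The pairs of arrays differed in how much the lines diverged as a whole. At least 3 fold higher and lower in My5.CRBN were 6 and 34 miRNAs (1.61% and 9.14%) under AGO2 cDNA, 12 and 3 (3.23% and 0.806%) under AGO2-sh72, 35 and 2 (9.41% and 0.538%) after 72 hours of lenalidomide, 26 and 7 (6.99% and 1.88%) with AGO2 cDNA and lenalidomide, and 24 and 24 (6.45% each) after 120 hours. The median log2 fold of all miRNAs ran from -0.40 under AGO2 cDNA to 0.40 after 72 hours of lenalidomide. Such shifts enter each single-pair value given above. The arrays also differed in detection. Under AGO2 cDNA the My5.CRBN array had the latest control mean of the 12 arrays (21.9) and 324 miRNAs under Ct 35, against 356 in My5.LV. After 72 hours of lenalidomide 367 miRNAs were under Ct 35 in My5.CRBN and 357 in My5.LV. The part of detection in the counts of each pair was not tested. Across the miRNAs under 35 on the 4 arrays concerned, Pearson's r between the untreated log2 folds and those of a treated pair ran from 0.28 over 336 miRNAs to 0.37 over 320. Spearman's rho ran from 0.13 to 0.29. The points share their arrays and their control wells, and miRNAs are not independent replicates.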

How the data were processed

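Total RNA had been isolated with the miRNeasy Mini kit, converted to cDNA (miScript II RT kit) and assayed on miScript miRNA PCR Arrays with SYBR Green, per the labels. The authors deposited a Ct score for each well, 372 miRNA assays and 12 control wells on each of 12 arrays, with no normalization. A second deposited table holds ratios that the authors made between arrays, and it was not used. All arrays were mapped by title, with 1 array a condition. Arrays have no sequencing depth, and each value is that of a single well.

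Ct values were capped at 35 and the mean of 6 small-RNA wells was subtracted. Fits used limma 3.58.1 in R 4.3.3 (lmFit, then eBayes with an intensity trend) on the 10 treated arrays, and were tested on simulated data. Other steps used Python 3.11.15, NumPy 2.4.6, pandas 2.3.3 and Matplotlib 3.10.9. Sequences and positions were RefSeq's in GRCh38.p14. Neighbours were assays within 50 kilobases.

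The miRNAs named were those past 3 fold, the 3 nearest that line on each side, the 3 largest differences each way under Ct 26, other arms and same-seed assays, members of the described groups, and up to 5 limma calls each way. miR-22-5p and miR-504-5p fall outside this rule and were picked with their values in view. miR-424-5p is a member of a described group, but it was named among the limma calls with its value in view. The members and lists were chosen with earlier results of these data known, so no list is independent support for a pattern, and miR-511 was dropped from the X-linked list because its gene lies elsewhere. Alternatives were other normalizers, a Ct cap of 32, filters on late Ct, fits with no trend or no block, all 6 pairs, and leaving out each pair. An interaction of cell line and lenalidomide was added after seeing the data.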

Additional observations from a re-analysis of the deposited data

Results flagged for a closer look

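The difference between the cell lines changed with lenalidomide for miR-205-5p, an epithelial miRNA. In limma on the 10 treated arrays, with an interaction of line and lenalidomide chosen after seeing the data, the log2 fold of My5.CRBN over My5.LV was larger with lenalidomide than without it by 4.74 ± 0.70 (SE; adjusted p = 0.00885 over 372 miRNAs). It was the only miRNA of the 372 to pass, and 51 had an unadjusted p below 0.05. The log2 folds were 1.00 in untreated cells, -0.91 under AGO2 cDNA and -0.16 under AGO2-sh72, then 3.67, 3.72 and 5.22 in the 3 pairs with lenalidomide. Over 6 arrays a line, its normalized Ct ran from 10.0 through a median of 10.7 to 10.9 in My5.LV and from 5.55 through 8.30 to 11.8 in My5.CRBN, so the spread lay in My5.CRBN. The fit had 3 residual degrees of freedom, and the cause was not tested. The labels do not say whether arrays with and without lenalidomide were run together, so a batch and the treatment cannot be told apart. In the fit, every pair without lenalidomide had AGO2 altered, by cDNA or AGO2-sh72, whereas lenalidomide was also given to cells with AGO2 unaltered. The contrast is therefore partly confounded with the change of AGO2. The untreated pair took no part in it.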

How the results depend on the processing

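In the untreated pair, 8 miRNAs higher and 7 lower by 3 fold became 4 and 2 both when Ct was capped at 32 and when an untreated Ct below 30 was required (higher miR-551b-3p, miR-143-3p, miR-223-3p and miR-206, lower miR-513a-5p and miR-508-5p), which by construction drops late assays. RNU6 alone as normalizer gave 6 higher and 11 lower and moved the median log2 fold of all miRNAs from -0.06 to -0.31, which took the share of higher calls from 53.3% to 35.3%. The global mean gave 9 and 7, and the SNORD wells and the reverse transcription wells 8 and 7 each. Over the treated pairs, limma's 7 higher and 3 lower became 15 and 3 with RNU6 (7 and 2 shared), 9 and 7 with the global mean (7 and 3 shared), 3 and 1 without the trend, 14 and 7 with all 6 pairs and 0 and 1 without the block (10 and 7 at an unadjusted p below 0.05). Leaving out a pair gave 4 to 11 higher and 1 to 2 lower. A Ct cap of 32 gave 7 and 3, of which 6 and 3 were shared with the main calls, miR-455-5p being lost (adjusted p = 0.0517). Of the 15 miRNAs past 3 fold in untreated cells, the mean treated difference changed sign for 4 that did not pass. miR-205-3p (main -0.04) was 0.0774 with RNU6, 0.27 with all 6 pairs and from -0.23 to 0.0817 with a pair left out. miR-211-5p was 0.0068 with a cap of 32. miR-23b-5p was -0.0687 with all 6 pairs and from -0.0155 to 0.73 with a pair left out. miR-508-5p was -0.21 with all 6 pairs and from -0.00073 to 0.60 with a pair left out. The values with all 6 pairs include the untreated fold by which these miRNAs were chosen, so they are no separate check of the sign. The cause of the other sign changes was not tested. The SD of the untreated log2 folds was 0.32 under Ct 24 and 1.05 from Ct 32 to 35. Such a spread across miRNAs mixes line differences with measurement error, and the part of each was not tested. The labels give no replicate numbers, so the only pairing was that of the lines within a treatment, which is the block.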
